A study of Mus musculus with 5 samples.

Results

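Th1 cells that went into a medium for induced regulatory T cells without a rest (Th1+TGFb) were set against the Th1 cells they were made from (Th1). The 2 samples were chosen by their titles, out of 5 in the series, and each was 1 culture measured on 1 array. Both began as naive CD4 T cells from the spleen of C57BL/6 mice. The Th1 cells had spent 4 days with antibodies to CD3 and CD28, a block of IL-4, and the cytokines IL-2 and IL-12. The Th1+TGFb cells had spent those same 4 days and then 4 more with CD3 and CD28 antibodies, IL-2 and TGF-β while IFN-γ and IL-4 were blocked, which makes 8 days in all. The added TGF-β, the removal of IL-12, the block of IFN-γ, the renewed stimulation and the extra days cannot be told apart in this comparison. The other 3 cultures, given for levels only, were rested (the Th1 cells after 4 days in IL-2 with IFN-γ and IL-4 blocked and no CD3 or CD28 antibody), Th1reg (rested cells after 4 further days in the TGF-β medium, 12 days in all) and iTreg (naive cells after 4 days in that medium).

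Th1 cells are helper T cells that secrete IFN-γ under the transcription factor T-bet, which IL-12 and IFN-γ induce. TGF-β binds a pair of receptor kinases that phosphorylate SMAD2 and SMAD3, and these enter the nucleus with SMAD4. In naive CD4 T cells TGF-β together with IL-2 and T cell receptor stimulation induces FOXP3, and in other T cells it is known for holding back T-bet, granzymes and proliferation. Granzymes are the serine proteases of killer cell granules, and granzyme B is also made by Th1 cells.

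The values are log2 of the processed signal of a probe minus log2 of the array's 75th percentile of signal, called the scaled log2 signal here. They allow a gene to be compared between arrays but not 2 genes with each other. That percentile was 198 for Th1+TGFb and 239 for Th1, and 47.7% and 45.7% of the spots were well above background. With 1 array for each culture no p-value or spread between cultures could be had, and every difference below describes 2 arrays. Repeat spots on the same array gave a technical SD of a difference of 0.0877 log2 units, and of 0.2543 where the signal was under 100. A gene was called when its log2 difference was at least 1 either way, which is 2-fold. A gene whose probe was not well above background is called dim. Where it was dim on 1 of the arrays its fold is a lower bound, written as "at least". That bound is taken against the higher of the probe's own signal and the lowest signal well above background on that array.

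Of 21366 genes with a named probe, 13060 were well above background on either array and 11744 on both. Of the 13060, 1481 (11.3%) were at least 2-fold higher in Th1+TGFb and 1017 (7.79%) at least 2-fold lower, so 19.1% were called in all. Those shares are the background for every count below. Over the 27581 measured probes, named or not, 14.4% were higher and 6.19% lower. Large differences were more often upward: 99 genes were at least 8-fold higher and 27 at least 8-fold lower, and 21 genes were at least 32-fold higher against 4 at least 32-fold lower. The median log2 difference of all 13060 genes was -0.20. Dim genes behaved differently from bright ones. In the dimmest of 5 equal bins of genes by mean signal 26.4% were higher and 6.32% lower, with a median of 0.41, while in the brightest bin 4.33% were higher and 7.54% lower, with a median of -0.32.

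**Figure D1:**
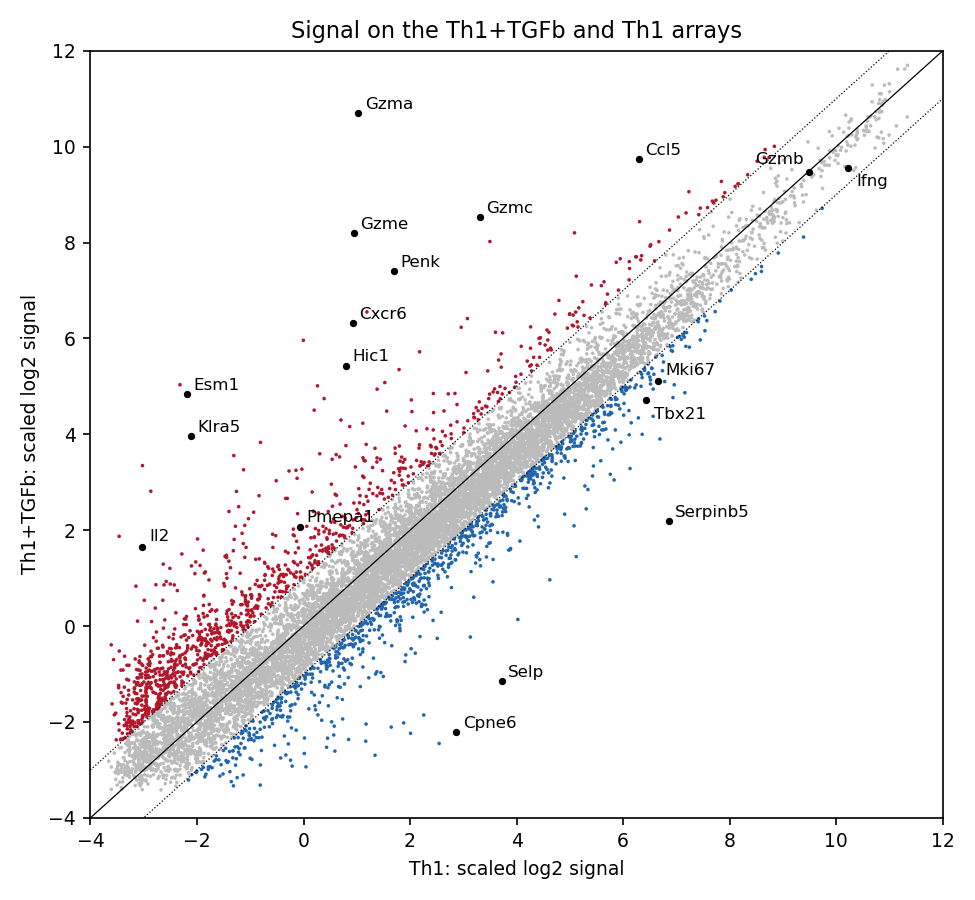
Scaled log2 signal of the 11744 genes well above background on both arrays, with Th1+TGFb on the vertical axis and Th1 on the horizontal axis. Red points were at least 2-fold higher and blue points at least 2-fold lower in Th1+TGFb, the dotted lines mark 2-fold, and black points are named genes. Gzma lies far above the diagonal at 10.71 in Th1+TGFb against 1.03 in Th1, while Gzmb and Ifng lie near it.

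Genes of the T cell receptor complex were well above background in both cultures. Cd4, the co-receptor of helper T cells, had a scaled log2 signal of 5.56 in Th1+TGFb and 5.36 in Th1, and Cd3e, a chain of the T cell receptor complex, 7.54 and 7.12. Of the 19 T cell identity genes 1 was higher and 1 was lower, and under spike-in scaling 0 were higher and 5 lower, with a median of -0.64. Cd3g was 2.47-fold higher in Th1+TGFb and the kinase gene Txk 2.78-fold lower. Cd8a was dim on both, and Cd8b1, the partner chain of the CD8 co-receptor, was at -2.11 in Th1+TGFb and -1.93 in Th1.

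The 4 genes given as markers of the comparison all stood higher in Th1+TGFb. Gzma encodes granzyme A and was at 10.71 in Th1+TGFb against 1.03 in Th1, a difference of 817-fold. Klra5, a lectin-like receptor of the Ly49 family, was at 3.96 in Th1+TGFb against -2.12 in Th1, which is 67.6-fold. Cxcr6, the receptor for the chemokine CXCL16, was at 6.33 in Th1+TGFb against 0.93 in Th1, which is 42.2-fold. Pmepa1, an inhibitor of TGF-β signalling that TGF-β itself induces, was at 2.07 in Th1+TGFb against -0.06 in Th1, which is 4.38-fold. A second probe of Klra5, Cxcr6 and Pmepa1 gave log2 differences of 6.09, 5.47 and 2.45, close to those of the probes used. These markers were chosen with earlier results of these arrays known, so their direction is a description.

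The promoters of the granzyme genes with the largest differences are shown first because granzyme genes carried several of the largest differences and because they lie in 2 separate chromosome clusters. Each line holds the 250 bases before the transcription start as RefSeq gives it for GRCm38.p6, 5′ to 3′ on the strand of the gene, which is the minus strand for all 4. Capitals mark the letters TGTGGT, the core bound by RUNX factors, or their reverse complement ACCACA. Gzmd is at chr14:56132594-56132843, Gzme at chr14:56120626-56120875, Gzmg at chr14:56159580-56159829 and Gzma at chr13:113100982-113101231.
Gzmd: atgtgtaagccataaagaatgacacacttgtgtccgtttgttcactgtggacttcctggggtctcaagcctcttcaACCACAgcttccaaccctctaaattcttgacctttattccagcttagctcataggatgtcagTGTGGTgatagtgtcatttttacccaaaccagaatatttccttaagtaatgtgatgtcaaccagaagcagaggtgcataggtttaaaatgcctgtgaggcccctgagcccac
Gzme: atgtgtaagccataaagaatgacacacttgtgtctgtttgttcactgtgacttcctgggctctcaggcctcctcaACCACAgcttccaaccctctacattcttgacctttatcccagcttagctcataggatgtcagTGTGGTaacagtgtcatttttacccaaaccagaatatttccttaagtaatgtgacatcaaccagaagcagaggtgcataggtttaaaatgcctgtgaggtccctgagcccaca
Gzmg: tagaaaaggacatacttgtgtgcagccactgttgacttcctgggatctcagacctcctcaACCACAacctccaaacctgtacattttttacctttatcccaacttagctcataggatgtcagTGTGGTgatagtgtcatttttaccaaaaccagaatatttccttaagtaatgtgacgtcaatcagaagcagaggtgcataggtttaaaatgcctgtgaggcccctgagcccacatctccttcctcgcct
Gzma: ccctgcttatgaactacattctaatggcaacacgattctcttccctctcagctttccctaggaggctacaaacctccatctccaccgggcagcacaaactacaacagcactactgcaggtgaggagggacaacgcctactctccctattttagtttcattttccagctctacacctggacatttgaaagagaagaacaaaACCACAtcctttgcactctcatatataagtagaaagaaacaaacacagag

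The Gzmd and Gzme promoters were identical at 95.2% of the 250 bases in a global alignment, and those of Gzmc, Gzmd, Gzme, Gzmf and Gzmg at 79.2% or more in every pair. The RUNX core stood 112 and 174 bases before the start in Gzmd, 113 and 175 bases in Gzme and 128 and 190 bases in Gzmg. The Gzma promoter had 1 such core, 50 bases before the start. Searched on both strands, the core occurred in 13 of the 22 measured lytic granule genes with a promoter in the table (59.1%), against 14.2% of all 27025 promoters and 11.2% of the 10461 promoters of measured genes. Among all genes at least 2-fold higher in Th1+TGFb its share was 13.9%, and it occurred in 6 of 15 killer receptor promoters (40%). Other motifs were searched in the same lists. The T-box core TCACACC occurred in 4 of the 22 lytic granule promoters (18.2%), against 3.31% of all promoters. The AP-1 core TGANTCA, where N is any base, occurred in 1 of the 22 (4.55%), against 6.87% of all promoters. The granzyme copies share their sequence and are not independent observations, and a match is only a match of letters.

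Granzyme genes split sharply by member. Gzmd was at 4.87 in Th1+TGFb and not well above background in Th1, which makes it at least 299-fold higher. Gzmg was at 5.03 in Th1+TGFb against -2.32 in Th1 (164-fold), and Gzme at 8.20 against 0.95 (152-fold). Gzmf was at 2.81 in Th1+TGFb against -2.87 in Th1 (51.2-fold), and Gzmc at 8.52 against 3.31 (37.0-fold). These 5 genes encode the granzymes made mainly by activated mouse killer cells. Gzmb, the best known lymphocyte granzyme, was at 9.46 in Th1+TGFb and 9.50 in Th1, a difference of -0.04 that lies within the technical SD. Gzmk was at -2.37 in Th1+TGFb and -2.83 in Th1, and Gzmm at -1.66 and -0.95, so neither was 2-fold apart. Because Gzmc to Gzmg are close copies, a probe for 1 of them may bind RNA of another, and the size of each single difference is uncertain for that reason.

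Of all 24 granzyme and lytic granule genes, 10 were at least 2-fold higher in Th1+TGFb and 0 lower, with a median log2 difference of 0.75. Under scaling to spike-in controls the count was 7 higher and 2 lower. Outside the granzymes the differences were smaller. Prf1, the pore protein perforin, was at 4.75 in Th1+TGFb against 3.48 in Th1 (2.41-fold). Ctsw, a cathepsin of killer cells, was at 6.79 in Th1+TGFb against 4.79 in Th1 (3.99-fold). The death ligand genes Fasl and Tnfsf10 were 2.16-fold and 2.56-fold higher. The granule proteoglycan gene Srgn (log2 difference 0.22), the granule membrane gene Lamp1 (0.18), the docking genes Unc13d (-0.41) and Stxbp2 (-0.06), and Ctsc (-0.03), the protease that activates granzymes, were not 2-fold apart.

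Gzma and Gzmc to Gzmg were lower in the other cultures. Gzma was at 4.89 in rested, 3.18 in Th1reg and dim in iTreg. Gzme was at 0.72 in rested and -2.44 in Th1reg, and Gzmd was dim in rested, Th1reg and iTreg. Gzmb was at 5.11 in rested, 5.34 in Th1reg and 1.26 in iTreg, far below its level in both Th1+TGFb and Th1. Th1+TGFb therefore had the highest signal of the 5 arrays for Gzma, Gzmc, Gzmd, Gzme, Gzmf and Gzmg, and stood beside Th1 for Gzmb. Fasl and Tnfsf10 were higher in Th1reg than in Th1+TGFb, and Gzmm was highest in rested, at 0.20.

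**Figure D2:**
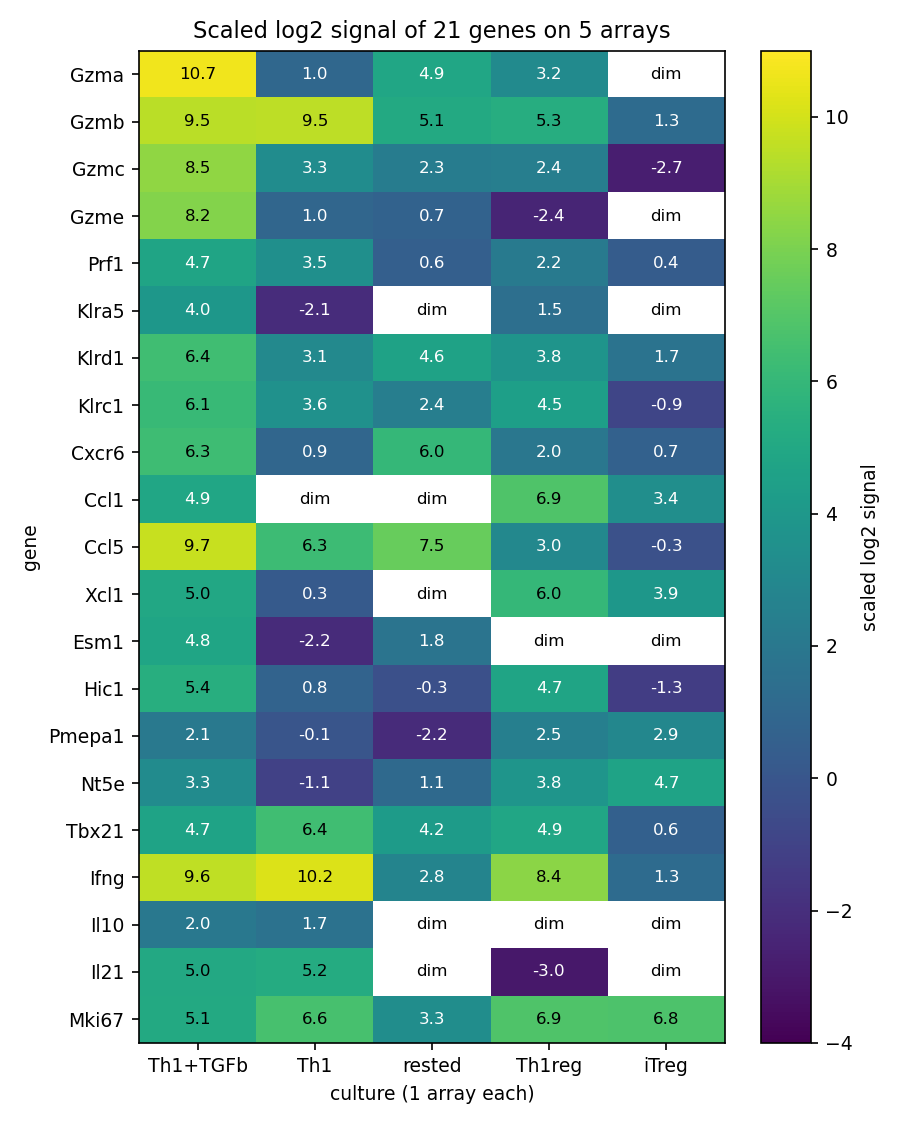
Scaled log2 signal of 21 genes on the 5 arrays, written in each cell and shown by colour; "dim" and white mark a probe not well above background. The row of Gzma is brightest on the Th1+TGFb array, at 10.71 against 1.03 on the Th1 array, while Gzmb is alike on both. Colours compare arrays within a gene, not genes with each other.

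Genes next to the granzymes on the chromosome were also read, in RefSeq gene order on GRCm38.p6. These neighbourhoods were chosen after the values had been seen, so their counts are descriptions and support nothing. On chromosome 13 Ccno, Mcidas, Cdc20b, Gpx8 and Gzma follow each other and all 5 were at least 2-fold higher in Th1+TGFb. Gpx8, a peroxidase of the endoplasmic reticulum, was at 2.26 in Th1+TGFb and not well above background in Th1, at least 60.4-fold higher. Ccno, a cyclin-like gene, was at 0.86 in Th1+TGFb against -2.43 in Th1 (9.75-fold). Esm1, a secreted proteoglycan 2 genes past Gzma, was at 4.84 in Th1+TGFb against -2.18 in Th1 (130-fold), while Gzmk between them was not 2-fold apart. From Snx18 onward no measured gene of the stretch was: Snx18 had a log2 difference of 0.06, Arl15 of 0.46 and Itga1 of 0.09.

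On chromosome 14 the cluster runs Ctsg, Gzme, Gzmd, Gzmg, Gzmn, Gzmf, Gzmc, Gzmb, and 6 of its 7 measured genes were higher in Th1+TGFb. Gzmb at the end of the cluster was the exception. Ctsg, a protease of neutrophil granules, was at least 2.22-fold higher and dim in Th1, and Gzmn was dim on both.

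**Figure D3:**
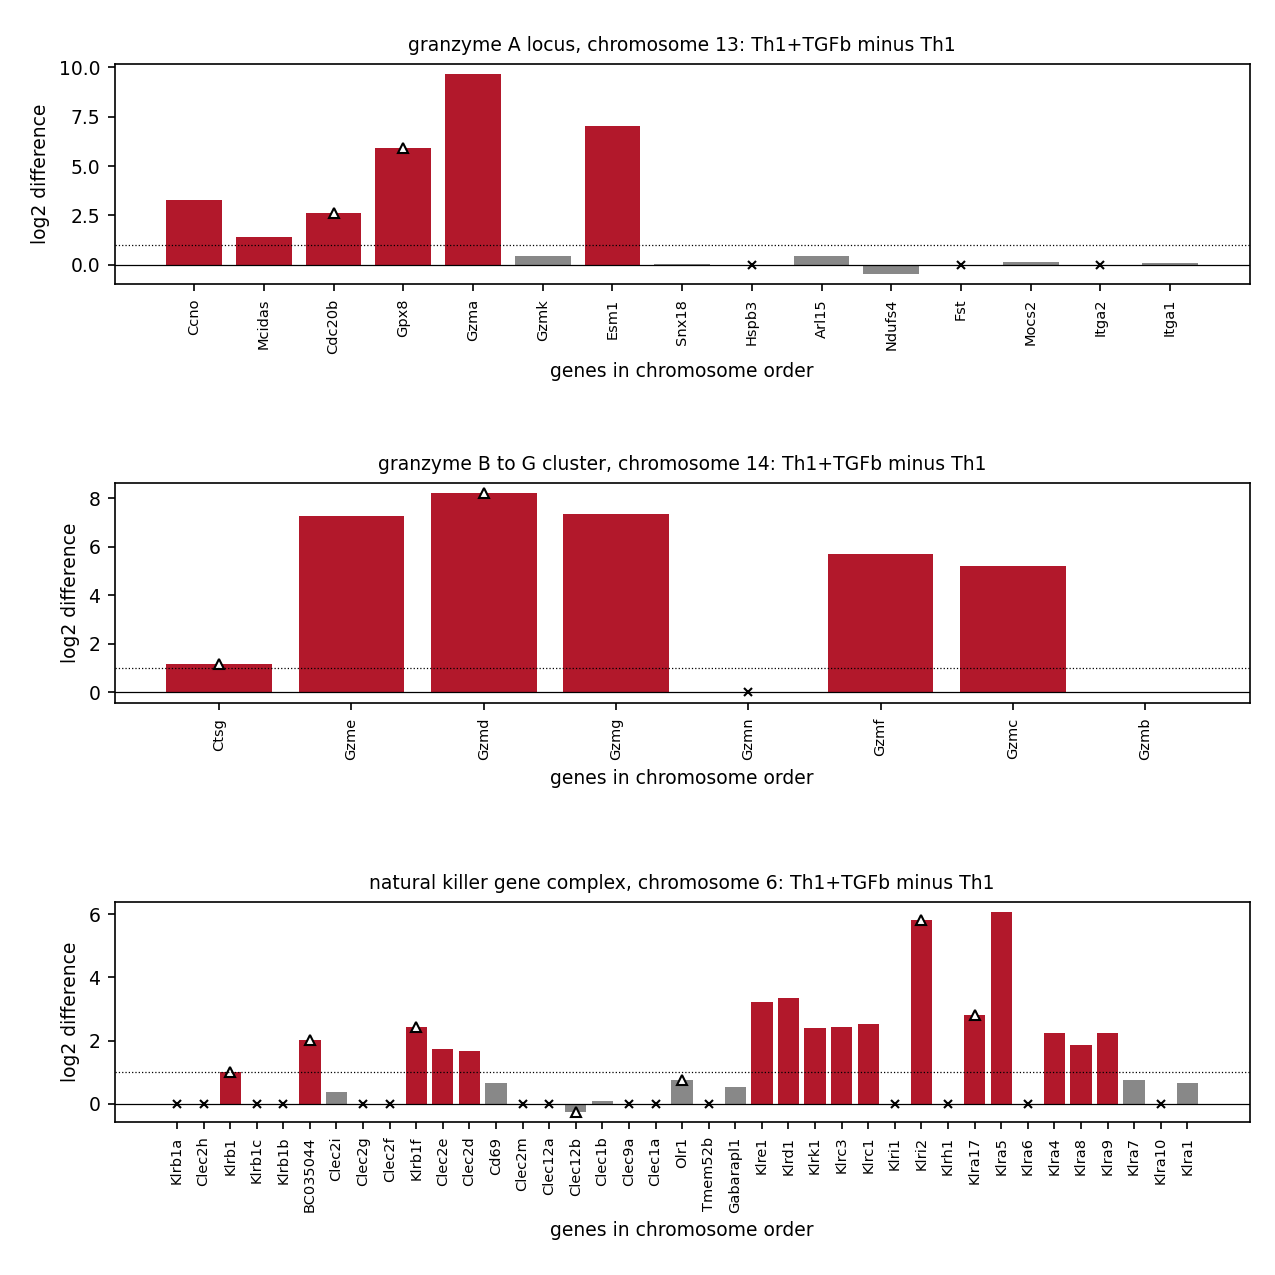
Log2 difference, Th1+TGFb minus Th1, for genes in chromosome order at the granzyme A locus, the granzyme B to G cluster and the natural killer gene complex. Red bars were at least 2-fold higher in Th1+TGFb, grey bars were not 2-fold apart, triangles mark lower bounds and crosses mark genes dim on both. The bar of Gzmb is near 0 beside Gzmc at 5.21, and 6 of the 7 genes from Ccno to Esm1 are red.

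Most measured killer cell receptor genes were higher in Th1+TGFb. Of 30 killer lectin-like and NK receptor genes with a probe 12 were dim on both arrays, among them Ncr1, Klrb1c and Klrg1. Of the 18 measured genes 13 were at least 2-fold higher in Th1+TGFb and 0 lower, with a median log2 difference of 2.23. Many of them were dim in some cultures, and the dimmest bin of genes had 26.4% higher calls in all. Klrd1 encodes CD94, the partner of the NKG2 receptors, and was at 6.41 in Th1+TGFb against 3.08 in Th1 (10.1-fold). Klrc1, the inhibitory NKG2A, was at 6.13 in Th1+TGFb against 3.60 in Th1 (5.75-fold), so both chains of that receptor were higher. Klrk1, the activating NKG2D, was at 0.89 in Th1+TGFb against -1.50 in Th1 (5.22-fold).

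Further lectin receptors were also higher. Klre1 was at 1.26 in Th1+TGFb against -1.94 in Th1 (9.23-fold), and Klri2 at 2.35 in Th1+TGFb and not well above background in Th1 (at least 55.6-fold). The Ly49 family members Klra4, Klra8 and Klra9 were 4.69-fold, 3.62-fold and 4.70-fold higher, while Klra7 and Klra1 were not 2-fold apart by the probes used. A second probe of Klra7 gave a log2 difference of 1.38. Crtam, an adhesion receptor of cytotoxic lymphocytes, was at 3.60 in Th1+TGFb against 1.72 in Th1 (3.68-fold), and Cd160 at -1.11 against -3.32 (4.61-fold). Among the adaptor genes that carry receptor signals, Hcst (DAP10) had a log2 difference of 0.54 and Fcer1g of 0.03, and Tyrobp (DAP12) was dim on both. Ly49 genes are close relatives, so their probes may also bind each other's RNA.

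In the natural killer gene complex of chromosome 6, read from Klrb1a to Klra1, 39 genes had a probe, 24 were measured, 16 were higher in Th1+TGFb and 0 lower. Taking only measured genes, 11 in a row from Klre1 to Klra9 were higher. The run ended at Klra7 (log2 difference 0.74) on the far side and at the autophagy gene Gabarapl1 (0.54) on the other. Cd69, the early activation antigen in the middle of the complex, had a difference of 0.66.

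Most measured chemokine genes were higher in Th1+TGFb. Of 15 ligands with a probe 7 were dim on both, and of the 8 measured 6 were at least 2-fold higher in Th1+TGFb and 1 was lower, with a median of 2.81. Ccl1, the ligand of CCR8, was at 4.86 in Th1+TGFb and not well above background in Th1 (at least 365-fold). Ccl9 was at 5.96 in Th1+TGFb against 0.00 in Th1 (62.4-fold), and Xcl1, which draws cross-presenting dendritic cells, at 5.01 against 0.26 (26.9-fold). Ccl5, known as RANTES, was at 9.74 in Th1+TGFb against 6.29 in Th1 (10.9-fold), and Ccl3 and Ccl4 were 4.52-fold and 2.69-fold higher. Ccl5, Ccl9, Ccl3 and Ccl4 are neighbours on chromosome 11. The interferon-induced Cxcl10 went the other way, at -1.28 in Th1+TGFb against 0.69 in Th1 (3.91-fold lower).

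Receptors for chemokines and homing were mixed. Of 21 measured genes 9 were higher in Th1+TGFb and 2 lower, with a median of 0.69. Cxcr2, a receptor best known from neutrophils, was 2.66-fold lower. Cxcr6 stood at 6.33 in Th1+TGFb, close to its 6.00 in rested and above 1.96 in Th1reg and 0.68 in iTreg. Ccr2, the receptor for monocyte-attracting chemokines, was at 0.03 in Th1+TGFb and not well above background in Th1 (at least 12.8-fold higher). Ccr9, the gut-homing receptor, was at least 6.83-fold higher and Cxcr3, the Th1 homing receptor, 2.83-fold higher. Ccr7, which guides cells to lymph nodes, had a log2 difference of 0.14. Itga4, the α4 integrin chain, was at 4.50 in Th1+TGFb against 0.20 in Th1 (19.7-fold), with a second probe at a log2 difference of 3.02. In rested Itga4 was at 4.41. Its partner Itgb7 was at 7.72 in Th1+TGFb against 6.35 in Th1 (2.60-fold).

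Cytokine genes differed by member. Of 21 measured genes 10 were higher in Th1+TGFb and 3 lower, with a median of 0.92. Ifng was at 9.56 in Th1+TGFb and 10.23 in Th1, a difference of -0.67. Tbx21, which encodes T-bet, was at 4.71 in Th1+TGFb against 6.42 in Th1 (3.27-fold lower). Il21 was at 5.05 in Th1+TGFb and 5.21 in Th1, and was dim in rested and iTreg. Il10 was at 2.03 in Th1+TGFb and 1.67 in Th1, and dim on the other 3 arrays. The growth factor gene Il2 was at 1.65 in Th1+TGFb against -3.04 in Th1 (25.7-fold), Csf2 (GM-CSF) at 2.08 against -1.28 (10.3-fold), and Il3 at 3.79 against 1.18 (6.12-fold). Spp1, the secreted phosphoprotein osteopontin, was at 6.55 in Th1+TGFb against 1.19 in Th1 (41.1-fold), and Penk, the enkephalin precursor, at 7.40 against 1.69 (52.4-fold). Lta (lymphotoxin α) was at 3.83 in Th1+TGFb against 5.96 in Th1 (4.36-fold lower), Osm was 3.28-fold lower and Il24 9.31-fold lower.

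Ligands of the TNF family also differed by member. Tnfsf11 (RANKL) was at 2.34 in Th1+TGFb and not well above background in Th1 (at least 63.8-fold). Cd70 was at 1.20 in Th1+TGFb against -2.51 in Th1 (13.1-fold), and Tnf was 3.22-fold and Tnfsf14 2.87-fold higher. Of the 25 measured costimulatory and TNF-family genes 8 were higher and 3 lower, and under spike-in scaling 4 were higher and 5 lower. The costimulatory receptor gene Icos was at 5.10 in Th1+TGFb against 6.78 in Th1 (3.20-fold lower), and Cd28 had a log2 difference of 0.06.

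The Th1 list held members on both sides. Of 24 measured genes 9 were higher in Th1+TGFb and 3 lower, with a median of 0.18, and under spike-in scaling 6 were higher and 8 lower, with a median of -0.18. Besides Tbx21 and Lta, the lower gene was Il12rb1, a chain of the IL-12 receptor, at 5.25 in Th1+TGFb against 6.35 in Th1 (2.14-fold). Eomes, a T-box factor of killer cells, was at 0.63 in Th1+TGFb against -1.09 in Th1 (3.29-fold higher). The IL-18 receptor genes Il18r1 and Il18rap were 2.74-fold and 3.14-fold higher, and the IFN-γ receptor genes Ifngr1 and Ifngr2 2.29-fold and 2.48-fold. Runx3, a RUNX factor of killer and Th1 cells, had a log2 difference of -0.28 and Runx1 of -0.72.

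Most IFN-γ-inducible genes were within 2-fold, as were most of all measured genes, of which 19.1% were called. Of 26 measured IFN-γ-inducible genes 1 was higher in Th1+TGFb and 4 were lower, with a median of -0.15. With quantile normalization 0 were higher and 1 lower, with a median of 0.02. With the 75th percentile of probes well above background on all arrays 1 was higher and 1 lower, with a median of 0.10. Under spike-in scaling 0 were higher and 5 lower, with a median of -0.51. Gbp2, an interferon-induced GTPase, was at 6.95 in Th1+TGFb and 7.38 in Th1, and Irf1 at 6.16 and 6.42. Lower members were Cxcl10 (3.91-fold), Nlrc5 (2.29-fold), Igtp (2.08-fold) and Gbp5 (2.04-fold). Type I interferon genes were split, with 6 of 20 higher and 2 lower, though 2 were higher and 3 lower under spike-in scaling and 2 and 2 with normexp background correction. Rtp4 was 4.71-fold and Isg20 4.03-fold higher, while Usp18, which damps the interferon receptor, was at 2.44 in Th1+TGFb against 5.31 in Th1 (7.27-fold lower) and Oasl1 6.92-fold lower. A pair of gene clusters was read after the values were seen. In the Ifi200 cluster of chromosome 1, 7 of 8 measured genes were higher, Ifi203 by 11.1-fold and Ifi214 by 8.76-fold. Ifitm1 on chromosome 7, which restricts virus entry, was at 8.02 in Th1+TGFb against 3.50 in Th1 (23.0-fold).

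TGF-β receptors and SMADs were mostly within 2-fold, as were most of all measured genes. Of 14 measured genes 1 was higher and 0 lower, and 0 of either under spike-in scaling: Tgfbr2 was at 4.43 in Th1+TGFb against 3.19 in Th1 (2.36-fold), while a second probe of Tgfbr2 gave a log2 difference of 0.30. Smad2 (-0.05), Smad3 (0.18) and Smad4 (-0.47), the signal carriers, were not 2-fold apart. Of 12 measured feedback inhibitors 4 were higher and 0 lower, with a median of 0.71, and under spike-in scaling 2 were higher and 2 lower. These were Pmepa1 and Skil (2.58-fold), and, dim in Th1, Smad6 (at least 2.36-fold) and Ldlrad4 (at least 2.22-fold). Smad7, the best known inhibitory SMAD, was at -2.55 in Th1+TGFb and dim in Th1, at least 1.97-fold higher. Pmepa1 stood at 2.47 in Th1reg and 2.93 in iTreg, the other cultures in the TGF-β medium, and at -2.16 in rested, which had none. Skil stood at 2.80 in Th1reg, 2.79 in iTreg and -0.06 in rested, and Ldlrad4 at -2.60, 0.14 and dim. Smad6 and Smad7 were higher in rested, at -1.17 and -1.61, than in Th1+TGFb, at -2.42 and -2.55. In Th1reg Smad6 was dim and Smad7 at -2.80, and in iTreg they were at -2.06 and -1.75. The part of TGF-β in these levels was not tested.

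Among 17 measured TGF-β target genes 6 were higher and 2 lower. Hic1, a transcriptional repressor, was at 5.43 in Th1+TGFb against 0.79 in Th1 (24.9-fold), at 4.74 in Th1reg and at -1.26 in iTreg. Rnf128, the ubiquitin ligase GRAIL, was 3.09-fold higher. Id3 was at -0.26 in Th1+TGFb against 2.51 in Th1 (6.81-fold lower). Of 11 measured ligand genes and their activators 3 were higher and 2 lower, with a median of -0.16. Tgfb2 and Ltbp1, both dim in Th1, were at least 3.32-fold and 2.92-fold higher. Ltbp3, which holds latent TGF-β in the matrix, was 5.48-fold higher, while Tgfb3 was at 1.77 in Th1+TGFb against 4.06 in Th1 (4.89-fold lower) and Furin, the protease that cleaves the TGF-β precursor, at 3.17 against 5.76 (6.04-fold lower). Tgfb1 had a log2 difference of -0.38.

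Foxp3, the regulatory T cell factor, was dim on both. Of 20 measured Treg signature genes 5 were higher in Th1+TGFb and 3 lower, with a median of 0.03, and under spike-in scaling 4 were higher and 6 lower, with a median of -0.33. Nt5e (CD73), which makes adenosine from AMP, was at 3.26 in Th1+TGFb against -1.12 in Th1 (20.9-fold). It was at 1.12 in rested, 3.84 in Th1reg and 4.71 in iTreg. Entpd1 (CD39), which provides its substrate, was at -0.64 in Th1+TGFb against -2.85 in Th1 (4.64-fold), and the adenosine receptor gene Adora2b was 3.08-fold higher. Lrrc32, which displays latent TGF-β on regulatory T cells, was at 0.61 in Th1+TGFb and 1.35 in Th1, below 5.25 in Th1reg and 6.05 in iTreg. Ebi3, a subunit of IL-27 and IL-35, was 4.89-fold higher, Ccr8 2.61-fold, and Nrp1 at least 2.51-fold. Izumo1r, a folate receptor family gene of regulatory T cells, was 2.61-fold lower, Il2ra (CD25) 2.03-fold lower, and Ctla4 had a log2 difference of -0.14.

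Genes of the other T helper lineages lay on both sides. Of 9 measured Th2 genes 4 were higher and 1 lower, of 13 Th17 genes 5 were higher and 3 lower, and of 18 follicular helper, naive and memory genes 3 were higher and 4 lower, with medians of 0.84, -0.03 and -0.06. Under spike-in scaling the Th17 list had 4 higher and 4 lower and the follicular, naive and memory list 3 and 8. Gata3, the Th2 factor, was at 2.36 in Th1+TGFb against 0.28 in Th1 (4.23-fold), and Bcl6, the follicular helper factor, at 3.58 against 0.61 (7.80-fold). Nfil3, a transcription factor of the Th2 list, was 3.06-fold lower, and Id3, a member of the last list, 6.81-fold lower. Ahr was 11.4-fold higher by the probe used, and a second probe gave a log2 difference of 0.75. The lineage cytokine genes Il4, Il5, Il17a and Il17f were dim on both. Il22 was at -0.41 in Th1+TGFb against -2.18 in Th1 (3.40-fold).

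Of 20 measured inhibitory receptor and ligand genes 7 were higher and 0 lower, with a median of 0.36, and under spike-in scaling 6 were higher and 2 lower. Cd96 was at 3.83 in Th1+TGFb against -0.81 in Th1 (24.9-fold), and at 2.95 in rested. Havcr2 (TIM-3) was at 1.45 in Th1+TGFb against -1.47 in Th1 (7.60-fold). Havcr2 was dim in rested, Th1reg and iTreg. Pdcd1 (PD-1), Lag3 and Tigit had log2 differences of 0.38, 0.21 and -0.34.

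**Figure D4:**
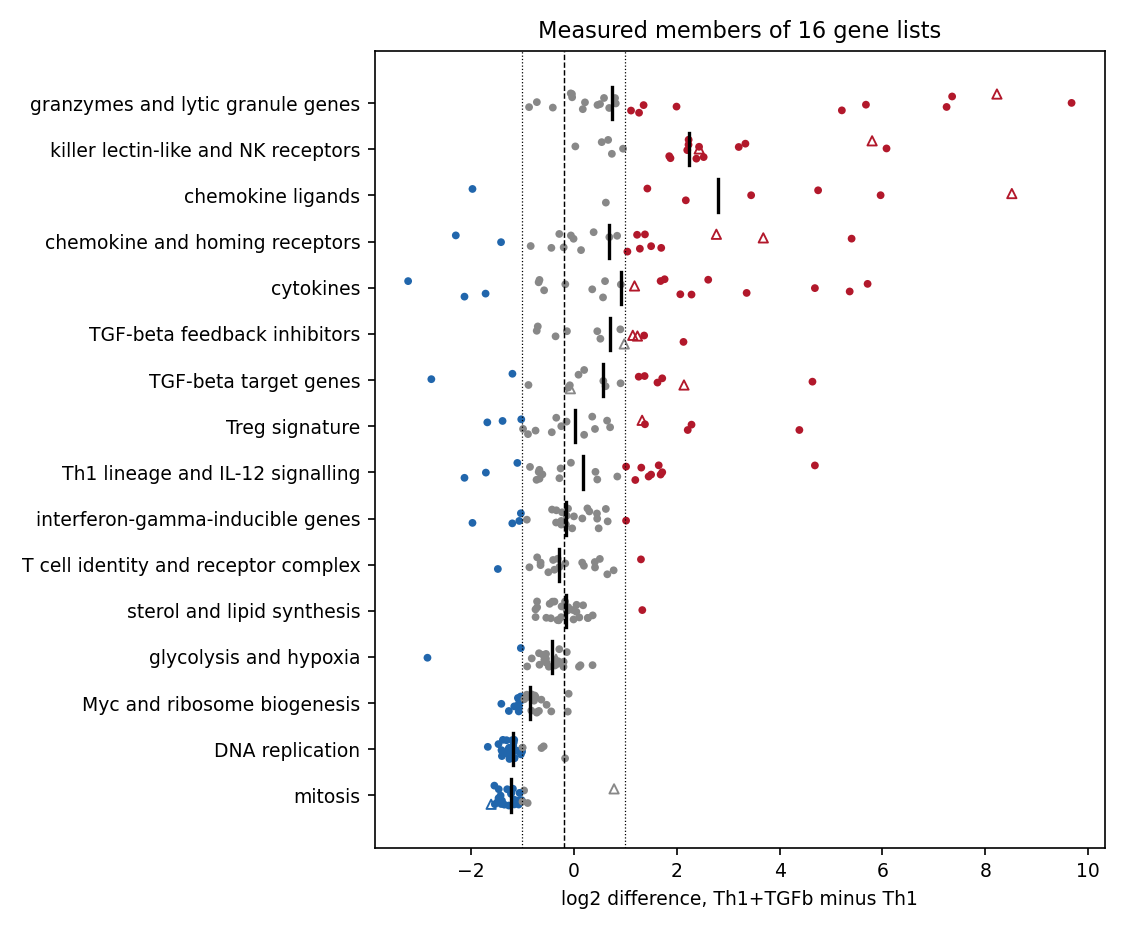
Log2 difference, Th1+TGFb minus Th1, of the measured members of 16 gene lists. Each point is a gene, triangles are lower bounds, red and blue mark at least 2-fold higher and lower, thick bars are list medians, the dashed line is the median of all genes at -0.20 and the dotted lines mark 2-fold. Most DNA replication and mitosis genes lie near their medians of -1.19 and -1.21, with 1 mitosis gene above 0, while the granzyme and chemokine lists spread to the right.

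Most proliferation genes were lower in Th1+TGFb. Of 28 DNA replication genes 24 were at least 2-fold lower in Th1+TGFb and 0 higher, with a median of -1.19, and of 27 measured mitosis genes 23 were lower and 0 higher, with a median of -1.21. The replicative helicase gene Mcm3 was at 4.97 in Th1+TGFb against 6.22 in Th1 (2.38-fold lower), the origin gene Orc1 3.18-fold lower and Rrm1, which makes deoxynucleotides, 2.65-fold lower. Mki67, the proliferation antigen, was at 5.11 in Th1+TGFb against 6.65 in Th1 (2.90-fold lower), and the mitotic kinase gene Plk1 at 4.09 against 5.64 (2.91-fold lower). Since the median difference lies close to the 2-fold limit, the counts moved with the scaling: between 9 and 25 replication genes were called lower over the settings tried, with medians from -1.55 to -0.88. Mki67 stood at 3.34 in rested, 6.88 in Th1reg and 6.84 in iTreg, so Th1+TGFb lay between the unstimulated culture and the other 3.

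The promoters of Mcm3 and Plk1 are shown because the replication and mitosis genes differed together. Capitals mark CCAAT or its reverse complement ATTGG, the box bound by the factor NF-Y, in the 250 bases before the RefSeq start on GRCm38.p6. Mcm3 is on the minus strand at chr1:20820313-20820562 and Plk1 on the plus strand at chr7:122159185-122159434.
Mcm3: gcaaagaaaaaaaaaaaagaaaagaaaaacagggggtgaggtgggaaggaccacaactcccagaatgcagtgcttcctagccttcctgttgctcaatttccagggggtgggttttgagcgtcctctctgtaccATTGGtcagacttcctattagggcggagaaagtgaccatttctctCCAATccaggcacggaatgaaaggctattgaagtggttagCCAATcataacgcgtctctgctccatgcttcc
Plk1: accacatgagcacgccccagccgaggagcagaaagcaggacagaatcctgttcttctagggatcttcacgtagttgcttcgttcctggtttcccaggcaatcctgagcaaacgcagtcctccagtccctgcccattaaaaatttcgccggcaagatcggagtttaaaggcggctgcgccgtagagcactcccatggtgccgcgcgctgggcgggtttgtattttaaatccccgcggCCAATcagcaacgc

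The box occurred at 32, 72 and 117 bases before the start in Mcm3 and at 14 bases in Plk1. On both strands it was found in 16 of 24 replication promoters (66.7%) and 17 of 22 mitosis promoters (77.3%), against 34.5% of all 27025 promoters and 36.3% of those of measured genes. The E2F core TTCCCGC, which can share at most 1 base with the box, occurred in 7 of the 24 replication promoters (29.2%) and in 0 of the 22 mitosis promoters, against 3.84% of all promoters and 6.57% of those of measured genes. The letters TTTGAA, also searched, occurred in 8 of the 22 mitosis promoters (36.4%) and 3 of the 24 replication promoters (12.5%). Their share was 16.3% of all promoters and 11.2% of those of measured genes. They also occurred in 6 of 15 killer receptor promoters (40%) and 4 of 22 lytic granule promoters (18.2%), so they were not particular to the mitosis list. The SMAD repeat CAGACA was found in 13.5% of the promoters of genes higher in Th1+TGFb and in 13.2% of those of all measured genes. These shares describe the letters of the promoters and say nothing of factor binding.

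Other growth genes went the same way by less. Of 26 Myc and ribosome biogenesis genes 10 were lower and 0 higher, with a median of -0.85, and scaling moved the count of lower genes between 2 and 21. Myc itself was at 3.26 in Th1+TGFb against 4.29 in Th1 (2.04-fold lower), and Gar1, of the small nucleolar RNA complex, 2.65-fold lower. In the unfolded protein and ATF4 list 5 of 23 were lower and 0 higher, with 3 to 15 lower over the settings. Lower members included the serine and glycine synthesis genes Shmt2 (2.56-fold) and Psat1 (2.48-fold). Glycolysis genes were within 2-fold apart from 2 of 26: Egln3, the hypoxia-induced prolyl hydroxylase, was at 3.29 in Th1+TGFb against 6.13 in Th1 (7.18-fold lower), and the glucose transporter gene Slc2a1 was 2.04-fold lower. Under spike-in scaling 6 of the glycolysis genes were lower. Of 28 sterol and lipid synthesis genes 1 was higher and 0 lower, and 0 were higher and 4 lower under spike-in scaling. None of the 22 measured G1 cyclins and CDK inhibitors was 2-fold apart with scaling to the 75th percentile, and 9 were lower under spike-in scaling. Of 22 measured survival and death genes 5 were higher and 2 lower, with a median of 0.02, and 2 were higher and 3 lower under spike-in scaling. The survival gene Bcl2 was 3.29-fold lower and the pro-death gene Bid 2.21-fold lower, while the BH3-only genes Bmf and Pmaip1 were 3.53-fold and 3.34-fold higher.

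Of 25 early activation genes 3 were higher in Th1+TGFb and 6 lower, with a median of -0.03. With the 75th percentile of probes well above background on all arrays 4 were higher and 3 lower. Under spike-in scaling 3 were higher and 8 lower, with a median of -0.39, and with normexp background correction 1 was higher and 5 lower. Nr4a1, an immediate response gene of the T cell receptor, was at 6.85 in Th1+TGFb and 6.80 in Th1, against -0.48 in the unstimulated rested culture, and Egr1 at 3.73 and 3.76. Irf8 was at 4.77 in Th1+TGFb against 6.94 in Th1 (4.50-fold lower) and Irf4 was 2.29-fold lower.

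Secreted and matrix genes were higher more often than lower, with 10 of 25 measured genes higher, 3 lower and a median of 0.60. Serpine2, a protease inhibitor, was 9.76-fold higher, the galectin gene Lgals3 3.27-fold, and the fibronectin gene Fn1 and the gelatinase gene Mmp9, both dim in Th1, at least 5.11-fold and 5.46-fold. Serpinf1 was 6.88-fold lower and Plaur, the urokinase receptor, 5.76-fold lower. Among cytokine receptor and SOCS genes 7 of 29 were higher and 4 lower, and under spike-in scaling 4 were higher and 8 lower. Il7r, the survival receptor for IL-7, was at 5.55 in Th1+TGFb against 3.66 in Th1 (3.70-fold).

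The largest differences outside these lists were also named by size. Higher in Th1+TGFb were Slc16a11, a monocarboxylate transporter family gene, at 3.35 against -3.02 in Th1 (82.7-fold), and Siglecf, a sialic acid receptor best known from eosinophils, at 2.64 and not well above background in Th1 (at least 78.7-fold). Among lower genes Sema3b, a secreted semaphorin, was not well above background in Th1+TGFb and at 4.58 in Th1 (at least 214-fold lower). Dntt, the terminal transferase of antigen receptor rearrangement, was also dim in Th1+TGFb and at 2.39 in Th1 (at least 53.9-fold lower). Siglecf had a second probe at a log2 difference of 3.56. Cpne6, a copine, was at -2.21 in Th1+TGFb against 2.87 in Th1 (33.8-fold lower). Selp (P-selectin) was at -1.14 against 3.72 (29.1-fold lower) and Serpinb5, known as maspin, at 2.18 against 6.85 (25.4-fold lower). Cstdc4, a stefin gene, was 31.9-fold lower, and its measured neighbours Csta3, Csta2 and Cstdc5 on chromosome 16 were at least 6.87-fold, 6.21-fold and at least 4.24-fold lower. Of the called genes 492 had another measured probe, and all other probes went the same way for 442 of them (89.8%). Calca, 13.5-fold lower, had a second probe at -0.95.

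Markers of other cell types were read beside these results, and their part in the result was not tested. Of 10 B cell markers 6 were dim on both, among them Cd79a, Cd79b, Pax5, Blk and Fcrla. The other 4, Ms4a1, Cd22, Cr2 and Ebf1, were all at least 2-fold higher, with Ebf1 at 0.26 in Th1+TGFb against -1.88 in Th1 (4.43-fold). Of these 4, 3 were higher under spike-in scaling and 1 with normexp background correction. Summed over all 10 with dim probes at the array's lowest signal well above background, the B cell markers came to 4.67 in Th1+TGFb and 1.93 in Th1, in multiples of the 75th percentile. Of 14 myeloid markers Lyz2, Lyz1, S100a8, S100a9, Adgre1, Flt3 and Clec9a were dim on both. Siglech was at 8.90 in Th1+TGFb and 8.01 in Th1, and Csf3r at 8.64 and 7.66, so the sum of the myeloid list was 1129 in Th1+TGFb and 554 in Th1. A second probe of Siglech gave a log2 difference of 1.97. Itgam was 2.70-fold higher by the probe used, while its other probes gave 0.34 to 0.74. Of the NK and γδ T cell list Ncr1, Klrb1c, S1pr5 and Fcgr3 were dim on both, and of 6 measured members 4 were higher and 0 lower, with a median of 1.79. The higher ones were Eomes, Klra4, Klra8 and Klri2. The sum of this list was 123 in Th1+TGFb and 136 in Th1. Without Il2rb, a receptor chain that T cells also express, it was 14.4 in Th1+TGFb and 3.04 in Th1. Such sums follow the brightest probes of a list and do not measure the amount of a cell type. Of 6 measured stromal and endothelial markers 3 were higher and 0 lower, of which Krt18 was 10.4-fold higher at 0.88 against -2.50. Mast cell markers numbered 0 higher and 0 lower of 3 measured, and of 10 erythroid and platelet markers Epor was measured, with a log2 difference of -0.05.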

How the data were processed

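Cy3-labelled total RNA was hybridised to 1-colour Agilent mouse arrays, 1 array for each of 5 cultures. The deposited scanner files hold a processed signal, a linear intensity from Agilent Feature Extraction 10.7.1.1 with local background removed and spatial trends taken out, per the file headers. The authors' value table also holds an intensity: on each array at least 99.7% of its probes lay within 0.01 log2 units of a constant ratio to the processed signal. The sources used here do not give how that constant was chosen.

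Control spots and spots marked as outliers (120 in Th1+TGFb, 142 in Th1) were left out, and 0 spots were saturated. Repeat spots of a probe were averaged on the deposited intensity, and the mean was divided by the array's 75th percentile of non-control spots and taken as log2. Probes were named by RefSeq accession through a GRCm38.p6 gene table, which named 28325 of 55670 probes. The array design was built on mm9, so that table was used for names and gene order, with no gene coordinates taken from it. The probe with the highest mean over the 5 arrays stood for a gene. Promoter sequences are from RefSeq, GRCm38.p6.

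Genes were named as follows: the 4 markers with Foxp3, Tbx21, Ifng and Il10, the largest differences and bounds each way, all members of the TGF-β, granzyme, killer receptor, Th1 and Treg lists, the members furthest apart in the other lists, and markers of other cell types. Genes read in chromosome order, and other members of the lists that this rule does not take (such as Mcm3, Myc, Il3, Nr4a1, Gbp2 and Pdcd1), were chosen after their values were seen. The markers, the 40 gene lists and the rule were chosen with earlier results of these data known. The number of arrays limits the precision, and all 5 arrays share a slide and a scan time. The calling step was tested on simulated data, with large differences placed in bright probes and noise near the technical SD of 0.0877 log2 units. The larger technical SD of signals under 100, 0.2543, and differences near 2-fold were not covered by that test. Alternatives included normexp correction (limma 3.58.1, R 4.3.3, offset 50), which used the median foreground and background signals in place of the mean foreground that had been planned. Python 3.11.15, numpy 2.4.6 and pandas 2.3.3 were used. Some genes of the lists are counted but not reported here by name.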

Additional observations from a re-analysis of the deposited data

How the results depend on the processing

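Of 260 measured genes that the naming rule takes, 158 were at least 2-fold apart. All 158 kept their direction under the alternatives, 11 in all, that gave them a value, and 119 stayed at least 2-fold apart under each of those. Prf1, Fasl, Tnfsf10, Tgfbr2, Smad6, Ldlrad4, Il12rb1, Ifngr1, Ifngr2, Il2ra, Nrp1, Ccr8 and Psat1 were among those that did not. So were Tgfb2, Ltbp1, Nlrc5, Igtp and Gbp5. Another 26 genes named as 2-fold apart lie outside that rule. All 26 kept their direction, and 19 stayed at least 2-fold apart. The number of genes higher in Th1+TGFb, 1481, became 897 with spike-in scaling, 641 with normexp background correction, 2638 with no filter on dim probes, and 847 when a signal of at least 100 on the brighter array was asked for, an alternative chosen after seeing the data. The number lower, 1017, became 536 with the 75th percentile and 657 with the median of probes well above background on all 5 arrays, and 2784 with spike-ins. The share of higher genes among those called was 59.3%, and became 78.6% and 73.2% with those 2 percentile scalings, 24.4% with spike-ins, 48.2% with normexp and 48.8% with the signal limit. Spike-in scaling moved the log2 differences by a median of -0.37 and the 75th percentile of bright probes by a median of 0.24. Differences that are bounds stop at 0, so some of them moved by less. The causes of these shifts were not tested. Replicates could not be left out in turn, with 1 array for each culture. No paired analysis was possible because each culture had 1 array. Signal over background limits the dimmest of 5 equal bins of genes, where 26.4% were higher.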
